A study of Mus musculus with 504 samples.

Results

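The genes described here encode the proteins of the cytosolic ribosome. They were taken from the deposited table by symbol: Rpl or Rps followed by a number, with an optional a, x or l, together with the stalk genes Rplp0, Rplp1 and Rplp2 and the gene Rpsa. The pattern found 83 of the 55450 genes in the table, 51 of the large subunit and 32 of the small subunit. GENCODE lists 80 of the 83 as protein-coding and gives Rpl6l, Rpl32l and Rps4l pseudogene types. The symbols alone chose the genes, and no measured value entered the choice. Genes of the same function whose symbols fall outside the pattern, such as Rps3a1 and Fau, were kept as a separate list of 7.

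A ribosome joins a small subunit, which reads the mRNA, to a large subunit, which forms the peptide bonds. Nearly all ribosomal proteins are needed in equal number, and most of their mRNAs begin with a C followed by a run of C and T, the terminal oligopyrimidine (TOP) start, through which mTOR and the binding protein Larp1 control their translation. Myc drives transcription of ribosomal protein genes and of the factors that assemble ribosomes. Some members have a second gene with a protein of similar sequence, a paralogue, that is used in certain tissues or after stress. Rps27l is such a paralogue of Rps27 and a transcriptional target of p53.

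The cells came from mammary tumours of mice that carry MMTV-PyMT, MMTV-Flpo and RC::FrePe together with CreERT2 under the Tnc promoter (Tnc line) or under the Cdh2 promoter (Cdh2 line). MMTV-PyMT is an oncogene active in mammary epithelium, and Flpo under the same promoter turns on mCherry from the reporter. Tamoxifen, given at 2 mg 2 times a week from week 9, lets Cre turn mCherry off and GFP on in cells in which the Tnc or Cdh2 promoter is active, and the switch stays. All groups carried these alleles and received tamoxifen, and tumours were taken at week 13 to 14. The labelling thus reports promoter activity after tamoxifen, and a cell in which recombination failed stays red.

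Pools of 5 cells were sorted by flow cytometry and sequenced with Smart-seq2, a full-length cDNA method. In the Tnc line, P18 was mCherry high and EpCAM high, P17 mCherry positive and EpCAM high, P05 mCherry positive and EpCAM negative, and P22 positive for both colours and EpCAM high. The other 4 Tnc populations had GFP without mCherry. P09 was GFP high with medium EpCAM, P16 had medium EpCAM, P10 little EpCAM, and P15 none. For P09 the labels of the libraries were followed, because the series text puts this gate under a different number. P18, P15 and P05 were the Cdh2 populations with libraries that passed.

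The 335 libraries that passed the authors' quality control were summed per animal and population into 43 sums, from 5 animals of each line. Every population of the Tnc line had 3 to 5 animals. In the Cdh2 line P18 had 5, P15 had 3 and P05 had 1, which allows no test. P15 of animal TENA2524 and P16 of TENA2483 rest on 1 library each, and P18 of Cdh1624 rests on 2. TMM factors ran from 0.57 to 1.67 over the sums, except for 2.53 in P18 of Cdh1624, which lowers every CPM there. The labels name the animal of each pool, so differences between sums reflect differences between animals as well as technical spread.

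Libraries held 313655 to 27849014 counts, with a median of 5378503. A median of 79 members was detected per library in each population. The fewest was 14, in a P10 library of TENA2483 with 3056122 counts, of which members took 0.0069%. Of 17 empty wells, 9 had no member count. The most was 2070, in a well with 256675 counts in all, while the libraries that passed held from 211 up, with a median of 70675.

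Markers of other cell types moved with the EpCAM-negative gates. Krt8, an epithelial keratin, was at 4104 ± 1332 CPM (counts of a sum over its total times its TMM scaling factor; mean ± SD, n = 5) in Tnc P18 and at 0.02 ± 0.04 (n = 3) in Tnc P15. Ptprc, the pan-leukocyte gene that encodes CD45, reached 10 CPM of a library's own total in all 12 Tnc P15 libraries, in 7 of 32 Tnc P05, 4 of 25 Tnc P10 and 2 of 10 Cdh2 P05 libraries. No library of another population reached that level, including the 16 of Cdh2 P15. Col1a1, a fibroblast collagen, was at 2232 ± 1769 CPM (n = 5) in Tnc P05 against 0.39 ± 0.41 (n = 5) in Tnc P18. In such pools, fewer cells of a type and less RNA per cell cannot be told apart.

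The starts of the genes the results turn on are shown first, 50 bases before and 20 bases after the RefSeq start in GRCm38.p6. Rps27l is shown because it is the one member whose level passed the test, Rps27 because it is its paralogue, and Rps6, the substrate of S6 kinase, as a member with a long TOP start. Capitals mark a TOP run, or, in Rps27l, the letters CCGGAAG, one form of the site that ETS-family factors recognise. Other forms of that site, which the sequences below may also hold, are not marked.
Rps27l, chr9:66946036-66946105, plus strand: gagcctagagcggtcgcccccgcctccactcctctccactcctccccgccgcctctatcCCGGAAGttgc
Rps27, chr3:90213629-90213698, minus strand: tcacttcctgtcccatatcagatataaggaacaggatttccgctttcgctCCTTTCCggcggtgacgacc
Rps6, chr4:86857348-86857417, minus strand: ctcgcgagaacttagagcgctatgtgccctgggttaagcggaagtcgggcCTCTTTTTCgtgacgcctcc

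The run after the start was 7 bases in Rps27 and 9 bases in Rps6, and the Rps27l entry has none at its annotated start. RefSeq held 73 promoter entries for 61 of the members. A C followed by at least 4 bases of C or T right at the annotated start was found in 14 of the 73 (19.2%), against 823 of 32851 (2.51%) of all entries. CCGGAAG on either strand, in the 250 bases before and 50 after the start, was found in 26 of the 73 (35.6%) and in 2910 (8.86%) of all entries. A match describes the letters only, and the count of TOP starts depends on how exactly a start is annotated.

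Many members share sequence with copies elsewhere in the genome, which bears on every level below. Loci other than members that share at least 50% of their 31-base words with a member numbered 304, of which 295 are annotated as pseudogenes. They belong to 68 members, 15 members had none, and Rpl21 had the most, with 19. Members were not counted as copies of each other. This leaves out the pseudogenes Rpl32l and Rpl6l, which are members and had 83.2 and 160 CPM in Tnc P18. The copies held 1.70 ± 0.14 times the members' own counts (SD over 43 sums). The lowest ratio, 0.94, was that of the single P15 library of TENA2524, and the highest was 1.96. Of the 79 members at 1 CPM or more in Tnc P18, 58 had copies with more counts than the member itself. A median of 33.9% of a member's 51-base words also occur elsewhere, up to 85.5% in Rpl36a. How reads with several matches were counted is not given in the sources used here, so the level of a member with copies is uncertain.

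**Figure D1:**
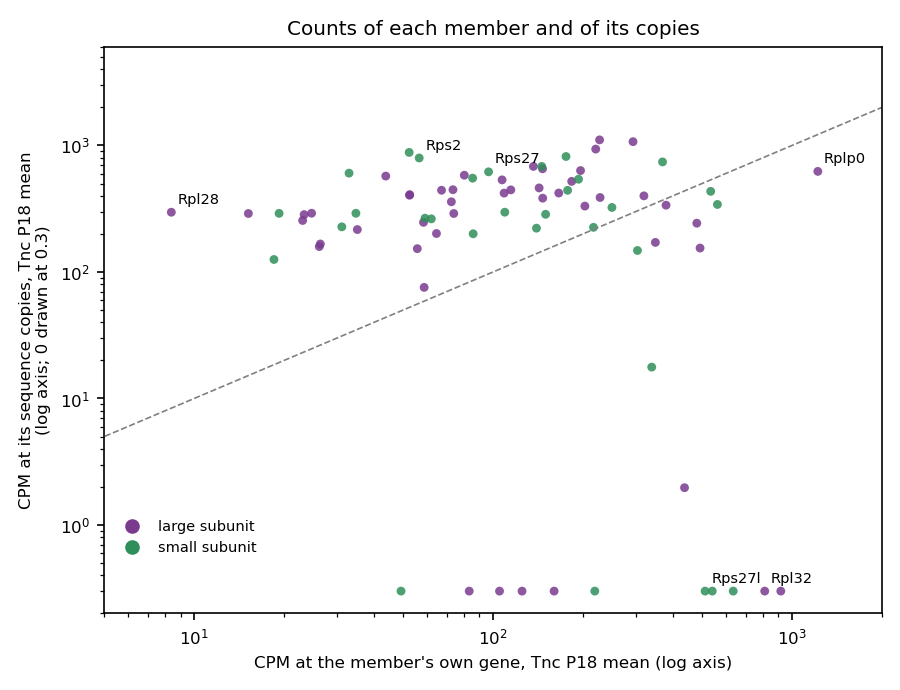
Mean CPM at each of the 79 members with at least 1 CPM in Tnc P18 (horizontal, log axis) and at its sequence copies (vertical, log axis, 0 drawn at 0.3), with a dashed line where both are equal. Of the 79, 58 lie above the line. Rps27l and Rpl32 sit at the bottom with no copies outside the members, while Rpl28 has 8.38 CPM beside 297 CPM at its copies.

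Levels spanned a wide range although nearly all the proteins are used in equal number. In Tnc P18 the 79 members ran from 8.38 to 1220 CPM, with a median of 125. Per kilobase of annotated exon they ran from 4.56 to 842 CPM per kb, with a median of 65.2. The other 4 members, the paralogues Rpl3l, Rpl10l, Rpl39l and Rps4l, were below 1 CPM.

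The highest level per length was that of Rpl32, a large-subunit protein gene on chromosome 6 (115805505 to 115808747, minus strand, mm10), at 842 CPM per kb. Its 5 Tnc P18 sums lay between 715 and 932 CPM. Rplp0, which anchors the acidic stalk where elongation factors bind, followed at 735 CPM per kb and Rplp1, a stalk protein gene, at 699. The lowest were Rpl28 at 4.56, Rpl35a at 7.01 and Rpl12 at 7.28 CPM per kb, all large-subunit genes. Their copies held 297, 291 and 159 CPM, against 8.38 ± 1.55, 24.7 ± 1.06 and 26.2 ± 4.32 CPM (n = 5) at Rpl28, Rpl35a and Rpl12 themselves. The exon length counts every annotated isoform, so a gene with rarely used exons is set too low on this scale.

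The order of the members was alike in every population. Spearman's rho with Tnc P18 over the 79 members was 0.921 in Tnc P15 and 0.976 to 0.996 in the other 9 populations, where members share libraries and sequence. Of the 10 highest members per kb in Tnc P18, 8 were among the 10 highest in Tnc P15, 10 in P17 and 9 in each of the other 8. Spread between animals differed more. The median coefficient of variation of a member was 15.2% in Tnc P18, 21.9% in P22, 22.3% in P09, 24.6% in P17 and 25.3% in P16. It was 38.5% in P05, 42.2% in P10 and 61.6% in P15, the gates with low or no EpCAM. In the Cdh2 line it was 56.4% in P18, or 36.5% without Cdh1624, and 21.3% in P15.

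Members together took 1.52 ± 0.24% of all counts in Tnc P18 (n = 5; 1.24 to 1.91%). The share was 1.76 ± 0.57% in P17 (n = 3), 1.36 ± 0.23% in P22 (n = 5), 1.496 ± 0.468% in P09 (n = 5) and 1.19 ± 0.45% in P16 (n = 4). These 4 overlapped with P18. P16 did so only through TENA2483, a sum of 1 library at 1.83%, and its mean without that animal was 0.976%. In P10 it was 0.96 ± 0.18% (n = 4; 0.70 to 1.09%), below P18 in 4 of 4 animals and with no overlap between the groups. P05 had 0.90 ± 0.51% (n = 5; 0.43 to 1.66%), below P18 in 4 of 5 animals, and P15 1.26 ± 0.18% (n = 3), below it in 2 of 3. Without the libraries at 10 CPM or more of Ptprc, P10 was at 0.806% and P05 at 0.963%. The Cdh2 line had 1.27 ± 0.56% in P18 (n = 5), 1.10 ± 0.10% in P15 (n = 3) and 0.75% in the 1 animal of P05.

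Counts at 3 ribosomal RNA loci moved opposite to this share in P10 and P05. CT010467.1, Gm42418 and AY036118 took 37.7 ± 13.5% of the counts in Tnc P18, 55.1 ± 8.20% in P10 and 49.9 ± 12.1% in P05. They were above P18 in 4 of 4 and in 5 of 5 animals. With these loci taken out of the total, members held 2.49 ± 0.42% in P18 and 2.25 ± 0.76% in P10, which was below P18 in 3 of 4 animals with overlapping groups. P05 was at 1.72 ± 0.73%, still below P18 in 4 of 5 animals. P22 was at 2.21 ± 0.49%, below P18 in 5 of 5 animals, with overlapping groups. Small-subunit members had 0.67 ± 0.07 times the counts of large-subunit members over the 43 sums, with a range of 0.57 to 0.95.

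**Figure D2:**
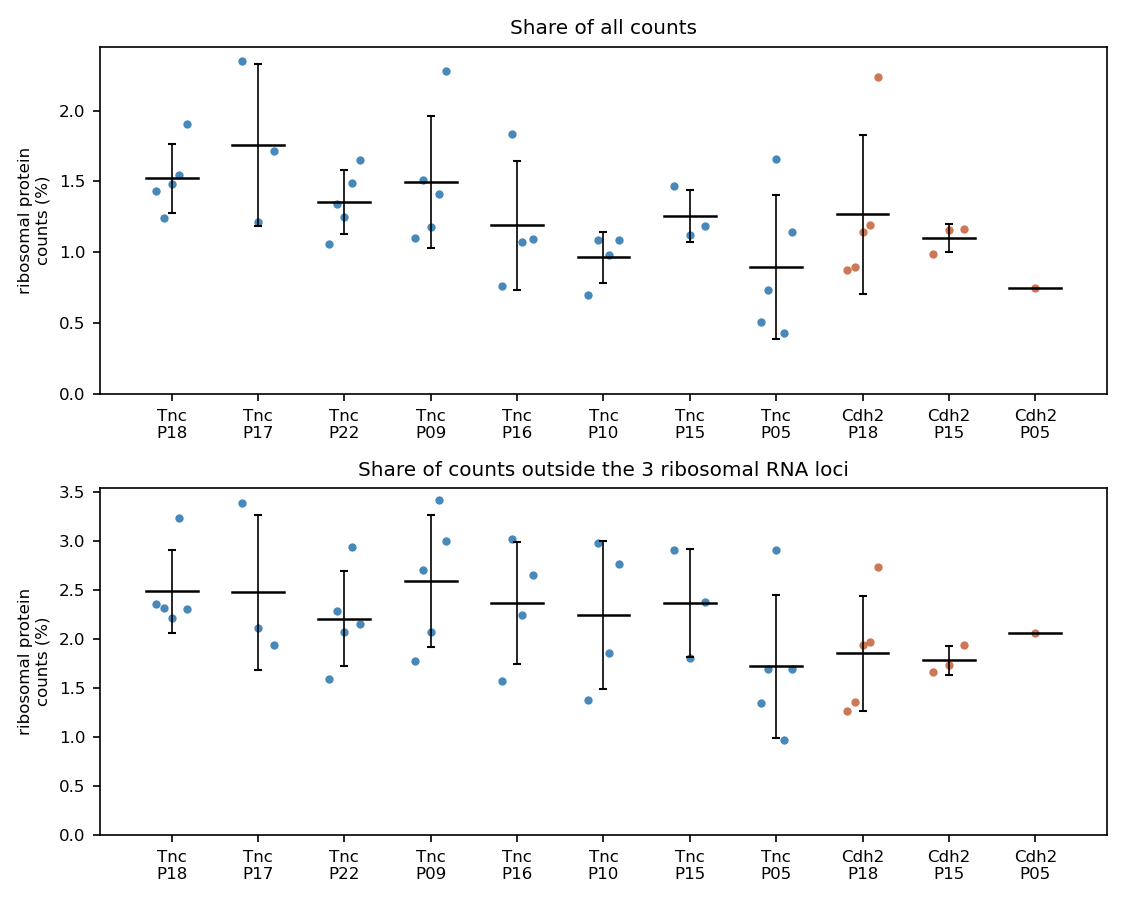
Percent of counts at the 83 ribosomal protein genes in each animal (points), with the mean and SD (bars), by population of the Tnc line (blue) and the Cdh2 line (orange), over all counts (top) and without 3 ribosomal RNA loci (bottom). In the upper panel P10 lies at 0.70 to 1.09%, below P18 at 1.24 to 1.91%, and in the lower panel they overlap.

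Changes between populations were tested gene by gene over all genes with edgeR's quasi-likelihood test, with the animal as a block and Benjamini-Hochberg adjustment. A gene was called at an adjusted p of 0.05. All 83 members were tested within the lines and 79 between them. A single member was called in a single comparison, Rps27l in Tnc P15 against P18, and it fell. In that comparison 0.729% of all 33768 genes were called. At an unadjusted p under 0.05, 2 members were higher and 22 lower, beside 5144 of all 33768 genes. DESeq2 called 5 members there, beside 15.7% of all genes.

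None of the 83 members was called by edgeR in the other comparisons within the lines. In Tnc P05 against P18, 0.545% of all genes were called. At an unadjusted p under 0.05, 1 member was higher and 16 were lower, beside 4477 of all 33768 genes. DESeq2 called 3 members there, beside 13.5% of all genes. Of these 3, Rpl10l rests on 18 counts in 1 of 32 P05 libraries against 0 counts in P18. In P15 against P05, with 0.136% of all genes called, 3 members were higher and 3 lower at that level, beside 3468 of all genes. DESeq2 called 8 members there, beside 16.7% of all genes. P10 and P16 against P18 each had 0.00296% of all genes called. There 3 and 2 members were lower at an unadjusted p under 0.05, beside 2779 and 2064 of all genes. DESeq2 called 0 members in either, and 4.98% and 3.52% of all genes. In P22, P09 and P17 against P18 and in Cdh2 P15 against P18, 0% of all genes were called. In these, 0 members had an unadjusted p under 0.05, beside 716, 851, 1695 and 1215 of all genes. DESeq2 called 0 members in P09 and P17 (3.71% and 5.35% of all genes), 1 in Cdh2 P15 (Rpl8; 7.69% of all genes) and 1 in P22 (2.48% of all genes). The call in P22 was Rpl3l, which had 0 counts in P22 and 1 count in P18 and so carries no information. In each of these comparisons DESeq2 called a smaller share of the members than of all genes. A member's fitted difference had a median standard error of 0.40 to 0.54 on the log2 scale in these comparisons, so differences of that size were not detectable.

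The fitted differences of the members lay close together, and their place against all genes is given as a description. The members' median log2 fold change in Tnc P05 against P18 was −0.60, beside −0.15 over all genes. Of the members, 74 of 83 were fitted lower, while 44.7% of all genes were fitted higher. With RLE in place of TMM scaling, 50 of 83 were fitted lower and both medians moved up, to −0.08 and 0.17. The distance between members and all genes was thus −0.45 with TMM and −0.25 with RLE. Against P18, that distance was −0.28 and −0.19 in P22, −0.20 and −0.09 in P09, −0.29 and −0.17 in P16, and −0.27 and −0.18 in P10. In P15 it changed sign, from −0.20 to 0.03, and with DESeq2 the members' median there was −0.13, beside 0.34 over all genes.

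With both scalings in edgeR, the members lay above the median of all genes in 3 comparisons. In P17 against P18 the distance was 0.26 with TMM and 0.35 with RLE, although the members' own median turned from −0.14 to 0.10. In P15 against P05 it was 0.39 and 0.47, and in Cdh2 P15 against P18 it was 0.23 and 0.11. Of the 3 Cdh2 animals with both populations, 1 is Cdh1624. Its P18 sum rests on 2 libraries, with CPM lowered by a TMM factor of 2.53, and the distance without it is not given. With DESeq2 the members' median was 0.10 in P17, beside −0.16 over all genes, and 0.12 in Cdh2 P15, beside −0.02. In P15 against P05 it was −0.03 with DESeq2, beside 0.00 over all genes, so the members did not lie above there. The comparisons against P18 share the P18 sums, so their medians are not independent of each other.

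**Figure D3:**
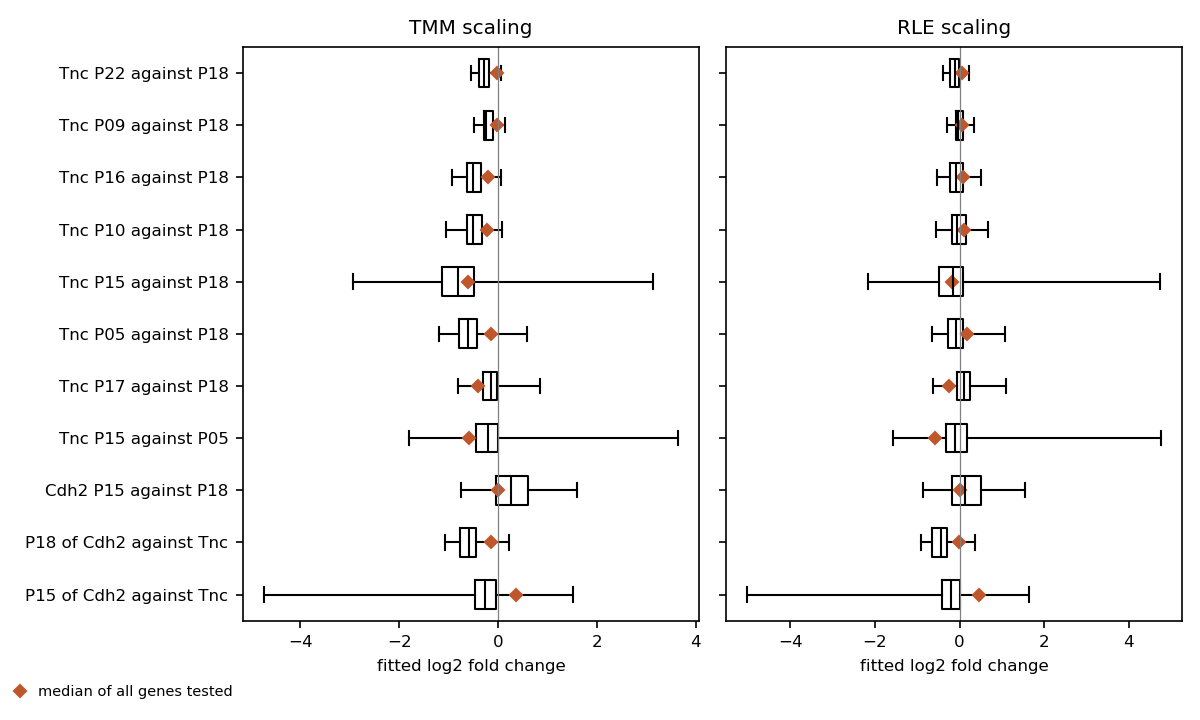
Fitted log2 fold changes of the 79 members at 1 CPM or more in Tnc P18 (boxes: quartiles and median, whiskers: lowest and highest) and the median of all genes tested (diamonds), for 11 comparisons, with TMM scaling (left) and RLE scaling (right). The boxes lie left of the diamonds for P05 against P18 in both panels, and around the diamond for P15 against P18 with RLE.

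Rps27l encodes a small-subunit protein that can take the place of Rps27 and, like it, binds the p53 regulator MDM2. It lies on chromosome 9 (66946086 to 66949516, plus strand, mm10) with 816 bases of exon. It has no sequence copy by the rule above, and 15.8% of its 51-base words occur elsewhere. In Tnc P18 the animals TENA2462, TENA2483, TENA2517, TENA2524 and TENA2560 had 310, 468, 488, 795 and 498 CPM of Rps27l. In Tnc P15, TENA2483, TENA2517 and TENA2524 had 109, 73.3 and 51.4 CPM, from 3134, 1125 and 32 counts. Every P15 sum was below every P18 sum, and P15 was lower in 3 of 3 animals that had both. The 2 groups did not overlap in 29 of the 83 members tested there, so this alone does not set Rps27l apart. The matching share over all genes is not given, so the count is no result about the members.

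The fitted log2 fold change of Rps27l in Tnc P15 against P18 was −2.93 ± 0.53 (SE; edgeR quasi-likelihood test, adjusted p = 0.0065). It stayed called in 12 of 12 alternatives, with values of −3.28 to −2.16 and adjusted p from 2.28e-06 to 0.0459. The highest of these p came without TENA2524, whose P15 is 1 library, and left 2 animals with P15. Scaled to the totals of the sums alone, without TMM factors, Rps27l lay at 314 to 640 CPM in P18 and at 62.9 to 110 CPM in P15. Among single libraries, each scaled to its own total, Rps27l had a median of 452 CPM in the 55 of P18 and 71.2 CPM in the 12 of P15, where the highest was 230 CPM and 11 had at least 1 count.

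Cell-type markers differed between these same sums. A list of 10 leukocyte genes summed to 36.2 to 87.0 CPM in Tnc P18, with Ptprc at 0, and to 3083 to 14308 CPM in Tnc P15. A list of 12 epithelial genes summed to 10853 to 23902 CPM in P18 and to 30.9 to 231 CPM in P15, with Cdh1, Cldn4, Cldn7, Elf3 and Krt7 at 0. Among 9 lymphocyte genes, TENA2483 P15 had 1255 CPM, of which the B-cell genes Cd79a and Ms4a1 held 615 and 286 CPM. The sums of TENA2517 and TENA2524 were 6.19 and 0 CPM. Their part in the Rps27l difference was not tested, and since all 12 P15 libraries carry Ptprc, none is left without it.

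The paralogue Rps27 was not called. Rps27 lies on chromosome 3 (90212522 to 90213651, minus strand) and had 96.6 ± 5.14 CPM in Tnc P18 (n = 5). In P15 its values were 206 CPM in TENA2483, 72.4 in TENA2517 and 46.5 in TENA2524, on both sides of P18. Within animals Rps27 was lower in P15 in 2 of 3, since TENA2517 and TENA2524 had 105 and 97.1 CPM in P18, and higher in TENA2483, at 91.7 CPM in P18. TENA2483 is the animal whose P15 sum holds B-cell genes. The fitted difference of Rps27 was −0.08 ± 0.50 (adjusted p = 1) with TMM and 0.62 (adjusted p = 0.505) with RLE scaling. Its copies complicate the level, since Rps27rt, a protein-coding gene that shares 91.6% of its 31-base words, had 560 CPM and the pseudogene Gm17241 58.2 CPM in P18.

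The ratio of Rps27l to Rps27 per kb was 6.76 ± 2.27 in Tnc P18 (n = 5) and 1.13 ± 0.40 in Tnc P15 (n = 3; 0.67 to 1.41). In the other 9 populations its mean ran from 5.02 to 13.6. With the copies counted to Rps27, the ratio of counts was 0.71 ± 0.21 in P18 and 0.16 ± 0.11 in P15. Tnc P15 was thus the lowest of the 11 population means on either measure, as a description with no test.

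The other populations of the Tnc line held more Rps27l than P15. Rps27l had 681 ± 361 CPM in P17 (n = 3), 411 ± 259 in P22 (n = 5), 441 ± 190 in P09 (n = 5), 368 ± 141 in P16 (n = 4) and 270 ± 157 in P10 (n = 4). In P05 the animals had 132, 220, 425, 92.5 and 276 CPM, which was lower than P18 in 5 of 5 animals with overlapping groups. The fitted difference of Rps27l in P05 against P18 was −1.13 ± 0.40 (adjusted p = 0.194) and in P10 −0.96 ± 0.43 (adjusted p = 0.57), neither of which passed. With RLE scaling these differences of Rps27l were −0.63 and −0.53 (adjusted p = 0.422 and 0.69). P15 against P05 gave −1.80 ± 0.50 (adjusted p = 0.164). DESeq2 called Rps27l in that comparison (−1.54, adjusted p = 0.00196), where it called 16.7% of all genes. Neighbours in this order overlap between animals, except that no P15 sum reached the lowest of P17, P22, P09, P16 or P10.

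In the Cdh2 line Rps27l had 133, 250, 453, 412 and 1025 CPM in P18 and 146, 174 and 182 CPM in P15, which overlap. The 133 CPM is that of Cdh1624, lowered by its TMM factor of 2.53, and no other P18 sum reaches down to P15. Scaled to totals alone, Rps27l lay at 267 to 1238 CPM in P18 and at 164 to 273 CPM in P15. The fitted difference of Rps27l was −0.52 ± 0.52 (adjusted p = 1). It ran from −0.24 without Cdh1739 to −0.85 without Cdh1624, and was −1.44 without the animal block. The 1 animal of Cdh2 P05 had 253 CPM. The difference between the lines of P15 against P18 was −2.41 ± 0.72 (Tnc minus Cdh2; p = 0.0023, adjusted p = 0.34 in the edgeR quasi-likelihood test), which did not pass over all genes. That difference also uses the P18 sum of Cdh1624. All 3 Cdh2 P15 sums of Rps27l were above the 3 of Tnc P15, with a fitted difference of 1.07 ± 0.79 (adjusted p = 0.869). In Cdh2 P15 the leukocyte list summed to 48.4 to 77.3 CPM and Ptprc, Cd52, Cd53, Laptm5 and Tyrobp were at 0.

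**Figure D4:**
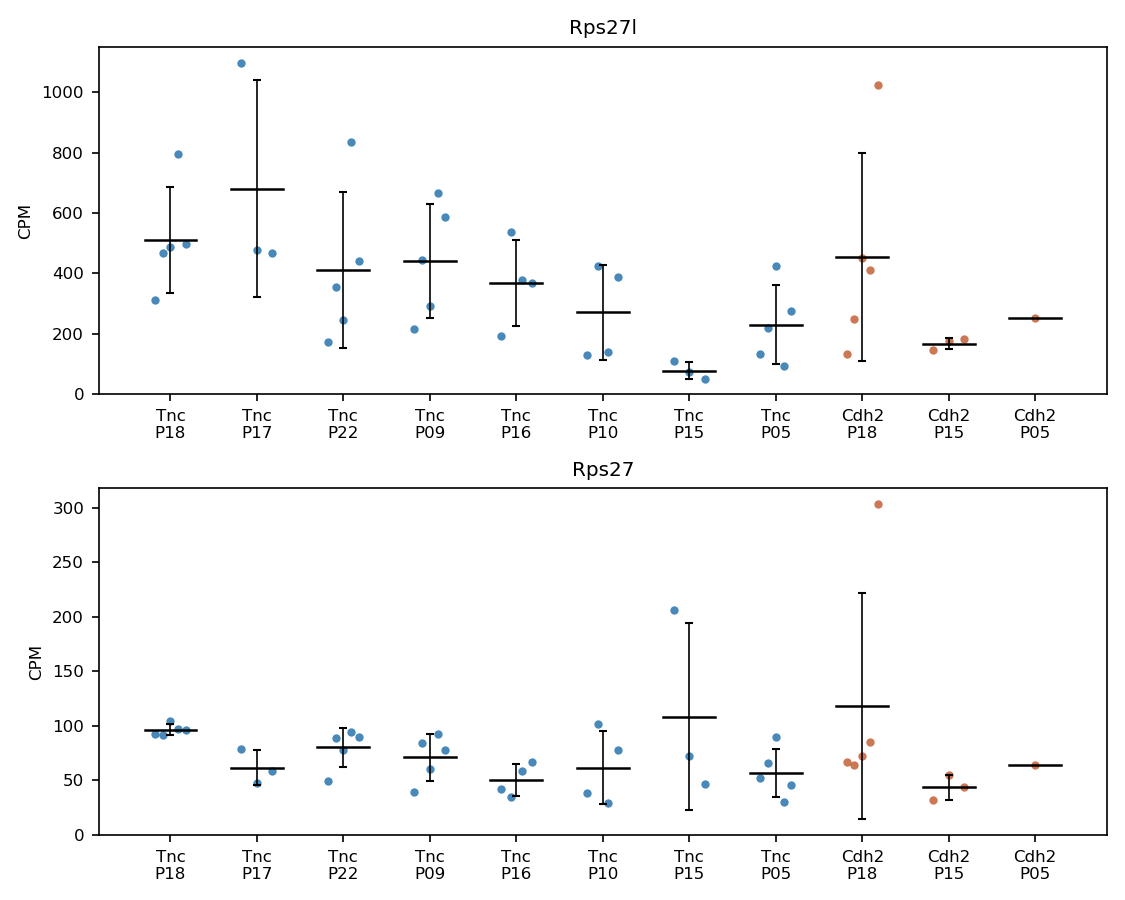
CPM of Rps27l (top) and of its paralogue Rps27 (bottom) in each animal (points), with the mean and SD (bars), by population of the Tnc line (blue) and the Cdh2 line (orange). Rps27l lies at 51.4 to 109 CPM in Tnc P15 and at 310 to 795 CPM in Tnc P18, while Rps27 in Tnc P15 spans 46.5 to 206 CPM around P18.

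Rplp0, Rplp1 and Rplp2 form the acidic stalk. Rplp0 had 1111, 1098, 1124, 1483 and 1284 CPM in Tnc P18 and 385, 727, 530, 491 and 673 CPM in P05, in the same order of animals. The P05 values of Rplp0 were lower in 5 of 5 animals, with no overlap. In P05 against P18 the groups did not overlap in 19 of the 83 members, Rplp0 among them. The matching share over all genes is not given here either. The fitted difference of Rplp0 was −1.12 ± 0.30 (adjusted p = 0.0704), the smallest adjusted p of any member there, and it did not pass. It passed in 3 alternatives chosen among those run, with equal weight of libraries (−1.19, adjusted p = 0.0432), with copies added (−1.15, 0.0468) and without the ribosomal RNA loci (−1.15, 0.0496). It did not pass in the other 10, and with RLE scaling Rplp0 was at −0.60 (adjusted p = 0.349). Rplp1 had 314 ± 130 CPM and Rplp2 82.7 ± 30.4 CPM in P05 (n = 5), with fitted differences of −0.18 ± 0.38 and −0.60 ± 0.41. Neither passed, with adjusted p of 0.936 and 0.544. With RLE scaling Rplp1 turned to 0.33 and Rplp2 was at −0.08. Col1a1 and the leukocyte list, which are high in several P05 sums, move with this comparison and their part was not tested.

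In Tnc P15 the mean of some members rests on the 1 library of TENA2524, which holds 508631 counts. Rps2, a small-subunit protein gene on chromosome 17 (24718116 to 24721929, plus strand), had 43.6 and 47.0 CPM in TENA2483 and TENA2517 and 2446 CPM in TENA2524, against 56.6 ± 11.9 CPM in P18 (n = 5). Rps2 was singled out after its values were seen. Its fitted difference was 3.13 ± 0.86 (adjusted p = 0.0784), which did not pass. Without TENA2524, Rps2 was fitted at −0.50 (adjusted p = 0.928). With the counts of its 17 copies added, Rps2 was at 0.47 (adjusted p = 0.657).

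Rplp0 was highest in the same library, with 991, 704 and 1973 CPM in the 3 P15 sums. Hnrnpa1, an RNA-binding protein gene whose mRNA has a TOP start, was in a list of 23 TOP genes of translation and related factors. Hnrnpa1 had 57.0, 42.4 and 1616 CPM in P15 against 21.8 to 24.9 CPM in P18. It was called higher in P15 against P18 (4.42 ± 0.82, adjusted p = 0.0081) and against P05 (3.87 ± 0.83, adjusted p = 0.0481), and both calls rest on that library. Without TENA2524 its differences were 0.99 (adjusted p = 0.548) and 0.32 (adjusted p = 1). The call against P18 was also lost without TENA2462 (adjusted p = 0.0532), and that against P05 without TENA2462 or TENA2560 (adjusted p = 0.225 and 0.161).

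**Figure D5:**
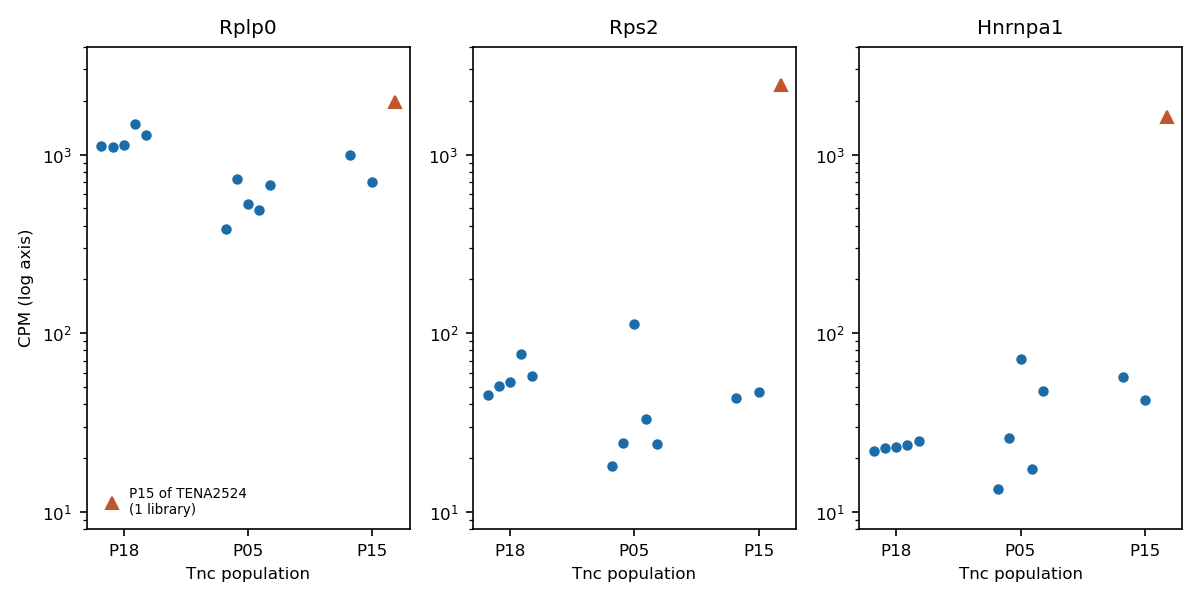
CPM (log axis) of Rplp0, Rps2 and Hnrnpa1 in each animal of Tnc P18, P05 and P15. The triangle is P15 of TENA2524, a sum of 1 library, which lies at 1616 to 2446 CPM in the 3 panels and above every other point of its panel.

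Rps6, Rpsa and Rps27a stand for members with further roles. Rps6 had 145 ± 17.8 CPM in Tnc P18 (n = 5), 97.6 ± 58.7 in P15 (n = 3) and 83.0 ± 20.7 in P05 (n = 5). Its fitted differences from P18 were −0.69 ± 0.45 (adjusted p = 0.506) and −0.81 ± 0.37 (adjusted p = 0.342). Rpsa, whose protein is also known as a laminin receptor, had 109 ± 27.2 CPM in P18, 92.8 ± 40.1 in P15 and 99.2 ± 16.1 in P05. Rps27a, which is made as a fusion with ubiquitin, had 178 ± 19.1 CPM in P18, 83.3 ± 55.8 in P15 and 86.4 ± 32.0 in P05. The fitted differences of Rps27a were −1.26 ± 0.51 (adjusted p = 0.231) and −1.06 ± 0.41 (adjusted p = 0.243). With RLE scaling Rps6 was at −0.06 in P15 and −0.28 in P05, and Rps27a at −0.70 and −0.54. None of these 3 genes passed in any comparison.

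Of the widely used partners in the other paralogue pairs, Rpl10 had 294 ± 31.5 CPM in Tnc P18 and 134 ± 63.2 in P15 (n = 3), with a fitted difference of −1.14 ± 0.43 (adjusted p = 0.203). Rps4x, the X-linked small-subunit gene, had 250 ± 68.2 and 115 ± 72.5 CPM, with −1.20 ± 0.49 (adjusted p = 0.237). Rpl3, a core large-subunit gene, had 80.1 ± 14.8 and 94.5 ± 86.2 CPM, with 0.16 ± 0.59 (adjusted p = 1). Rpl39 had 58.8 ± 18.2 and 42.8 ± 15.4 CPM, with −0.74 ± 0.52 (adjusted p = 0.543). With RLE scaling Rpl10 was at −0.50, Rps4x at −0.64 and Rpl3 at 0.61, while Rpl39 turned to 0.05, and none of them passed.

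The rare partners were seen in few libraries. Rps4l, annotated as a transcribed pseudogene on chromosome 6, had 1393 counts in 12 of the 335 libraries, and 1373 of them came from 4 of the 32 Tnc P05 libraries. The highest of these had 581 counts, or 171 CPM. In the P05 sums Rps4l was at 13.7 CPM in TENA2483, 19.3 in TENA2517 and 27.0 in TENA2560, and at 0 in the other animals. It did not pass (adjusted p = 0.0804 in P05 against P18). Rpl3l, known from striated muscle, had 324 counts in 10 libraries, Rpl10l 67 counts in 6, and Rpl39l 42 counts in 5.

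The 7 ribosomal protein genes outside the symbol pattern were treated in the same fits, and 0 of 7 were called in each of the 11 comparisons. Their median in Tnc P05 against P18 was −0.86, with 7 of 7 fitted lower, beside −0.15 over all genes. Of 40 ribosome biogenesis genes, which act in the nucleolus and in subunit export, 0 were called in any comparison. Their median was −0.88 in Tnc P15 against P18, beside −0.61 over all genes, and 1.09 in Cdh2 P15 against P18, beside 0.00. The Cdh2 value includes Cdh1624, whose P18 sum rests on 2 libraries. Of the 23 TOP genes of translation factors, Hnrnpa1 was the one called.

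Of 23 genes of Myc and mTOR control, 0 were called in any comparison. Myc had 137 ± 21.6 CPM in Tnc P18 (n = 5) and 107 ± 146 CPM in Tnc P15 (n = 3), with a fitted difference of −0.72 ± 1.18 (adjusted p = 0.931). In P05 Myc had 171 ± 233 CPM (n = 5), with −0.42 ± 0.97 (adjusted p = 0.953). Larp1 had 6.35 ± 0.65 CPM in P18 and 1.48 ± 1.92 CPM in P10 (n = 4), with −2.40 ± 1.55 (adjusted p = 0.707). The SD of Myc between animals was larger than its mean in Tnc P15 and Tnc P05. In Cdh2 P15, also EpCAM negative, Myc had 142 ± 53.8 CPM (n = 3).

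Between the lines, P18 and P15 were each compared over animals without a block, since animals are nested in lines, and 0% of all genes were called in either. In P18, 0 of 79 members were called by edgeR or DESeq2, and 2 were lower at an unadjusted p under 0.05. Of the 17878 genes tested, 430 had such a p. The members' median was −0.58 (Cdh2 minus Tnc), beside −0.15 over all genes, with 78 of 79 fitted lower, and −0.45 beside −0.01 with RLE. With TMM, 40.3% of all genes were fitted higher. DESeq2 called 0.0173% of all genes there. The sum of Cdh1624 holds 879259 counts from 2 libraries and was the lowest of the 5 Cdh2 sums in 71 of the 79 members. Its median member had 28.4 CPM, against 67.9 to 140 CPM in the other 4. Scaled to totals alone it was the lowest in 39 members, with a median of 71.7 CPM against 71.4 to 169 CPM. Without Cdh1624 the members' median was −0.38, beside 0.04 over all genes, with 72 of 79 fitted lower. Without Cdh1803, the animal with the largest share of member counts, it was −0.88 beside −0.20. Members at an unadjusted p under 0.05 numbered 11 without Cdh1624, 15 without Cdh1803, and 0 or 1 without any other animal. Counts over all genes are not given for these fits. In P15, 0 of 79 members were called by either tool, where DESeq2 called 10.3% of all genes. At an unadjusted p under 0.05, 2 were lower, beside 1485 of all 14028 genes. The median there was −0.27, beside 0.38 over all genes, with a median standard error of 0.94. It ran from −0.60 without TENA2524 to 0.05 without TENA2483. Each animal belongs to 1 line, so line and any batch of animals cannot be told apart.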

How the data were processed

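Counts of reads per gene in 504 Smart-seq2 libraries were used as the authors deposited them. STAR, SAMtools, featureCounts, Subread and mm10 are named in the submitters' processing notes, while no source used here states versions, strand or how reads with several matches were treated. All 55450 gene identifiers matched GENCODE M21. The 335 libraries that passed the authors' quality control were summed per animal and population. The 152 that failed and the 17 empty wells were left out of all tests.

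CPM of a sum were computed from the deposited counts over its total times its TMM factor, and CPM of a library over its own total alone. Tests used edgeR 4.0.16 (R 4.3.3, limma 3.58.1) with filterByExpr, TMM scaling, robust quasi-likelihood F-tests and Benjamini-Hochberg adjustment over all genes, 33768 within the lines, and 17878 for P18 and 14028 for P15 between them. One model held all 43 sums with the animal as a block. Alternatives were RLE scaling, no filter, DESeq2 1.42.0, no block, equal weight of libraries, no libraries at or above 10 CPM of Ptprc, and each animal left out. Members summed with their copies, the fit without the ribosomal RNA loci, and the test between the lines of P15 against P18 were added after seeing the data. Fits without an animal read the dispersion trend from every 8th gene, which moved a member's adjusted p by at most 0.0235 with all animals kept. The fits were checked on simulated counts.

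The pairing comes from the labels, which name the mouse. Over P18, P22 and P09 of the Tnc line and 3098 genes, deviations from the population means correlated at 0.08 to 0.80 in 15 pairs of the same animal (median 0.40) and at −0.62 to 0.23 between animals (median −0.08).

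The members and gene lists were chosen with earlier results of these data known. Members were named if called and moving in 1 direction in every animal, if among the 3 highest or 3 lowest per kb in Tnc P18, if in a paralogue pair, or as Rplp0, Rplp1, Rplp2, Rpsa, Rps6 or Rps27a. Of each gene list up to 3 called genes could be named, with Myc, Larp1, Ptprc, Krt8 and Col1a1 in any case. Promoter sequences are from RefSeq (GRCm38.p6) and gene positions from GENCODE. Some genes are not reported here.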

Additional observations from a re-analysis of the deposited data

Results flagged for a closer look

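In 3 of 42 groups of 4 or 5 animals, 1 animal stood apart from the others by Dixon's criterion at 95%, which chance meets in about 1 group in 20. Ribosomal protein genes took 2.24% of the counts in P18 of the Cdh2 animal Cdh1803, and the nearest of the other 4 animals had 1.196%. Rps27 was at 304 CPM in the same sum, beside 84.8 CPM in the nearest animal. Rps2 was at 112 CPM in P05 of the Tnc animal TENA2517, beside 33.2 CPM in the nearest.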

How the results depend on the processing

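Rps27l stayed called in Tnc P15 against P18 under 12 of 12 alternatives. The number of members called in that comparison, 1 as reported, was 3 with RLE scaling (Rps27l and Rps2 among them), 5 with DESeq2 (Rps20 and Rpl17 also among them) and 1 to 2 when each animal was left out. In Tnc P15 against P05 it was 0 as reported, 3 with RLE, 8 with DESeq2 and 0 to 2 when each animal was left out, with 1 (Rps2) without TENA2483 and 2 (Rps2 among them) without TENA2517. In Tnc P05 against P18 it was 0 as reported, 3 with DESeq2 (Rpl12, Rpl7 and Rpl10l, the last on 18 counts of 1 library) and 1, Rplp0, with equal weight of libraries, with copies added and without the ribosomal RNA loci. DESeq2 called 1 in P22 (Rpl3l, on 1 count against 0) and 1 in Cdh2 P15 (Rpl8). The share of all genes called by DESeq2 was 15.7%, 16.7%, 13.5%, 2.48% and 7.69% in these 5 comparisons. For the other alternatives that share is not given, so their counts are no result about the members. The count of members called was within 1.5 times the reported one in 132 cases and above that in 16. Rps2 in Tnc P15 against P18 turned to −0.50 without TENA2524, whose P15 is 1 library, and was at up to 3.90 without another animal. The call of Hnrnpa1 in P15 against P05 was also lost with no filter, with equal weight of libraries and with copies added (adjusted p = 0.0574, 0.055 and 0.0568). Apart from the library of TENA2524, the causes were not tested.

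Without the replicate block by animal, 3 members were called in Tnc P15 against P18 (Rps27l and Rps2 among them), 1 in P05 against P18 (Rps4l) and 2 in P15 against P05 (Rps2 among them). The block changed no other count of called members. The share of all genes called without the block is not given.

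The share of counts moved with its definition. With -ps pseudogenes added it was 2.67% in Tnc P18, 3.04% in P17, 2.37% in P22, 2.61% in P09, 2.07% in P16, 1.70% in P10, 2.07% in P15, 1.55% in P05, and 2.18%, 1.84% and 1.29% in Cdh2 P18, P15 and P05. With all copies added these were 4.20%, 4.71%, 3.70%, 4.05%, 3.201%, 2.61%, 3.13%, 2.41%, 3.56%, 2.89% and 2.06%, in the same order. Without the ribosomal RNA loci they were 2.49%, 2.48%, 2.21%, 2.60%, 2.37%, 2.25%, 2.37%, 1.72%, 1.86%, 1.78% and 2.06%. Adding the libraries that failed raised Tnc P15 to 1.49%. The same step lowered Tnc P17 from 1.76 to 1.29%, P16 from 1.19 to 0.979% and P10 from 0.964 to 0.861%. Cdh2 P05, with 1 animal, was at 0.764% without mitochondrial genes, 0.737% as the mean over libraries, 0.743% without libraries with Ptprc and 0.739% with libraries that failed.

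The comparisons with Tnc P15 could not be run without libraries with Ptprc, since none is left. Low depth limits the single P15 library of TENA2524, with 508631 counts, and 32 counts of Rps27l.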
